A study of Arabidopsis thaliana with 6 samples.

Results

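The loci described here lie on both sides of ESD7 (AT1G08260) on chromosome 1 of Arabidopsis thaliana, the gene that the esd7-1 mutation affects. Members were the probe sets annotated to exactly 1 gene with a locus tag from AT1G06240 to AT1G10640, with the probe set of the highest mean over the 6 arrays standing for its locus. This rule used no difference between genotypes. It gave 200 loci, 100 before and 100 after ESD7, of 13286 loci on the array with a single-gene probe set and a locus tag. Of the 200, 198 are protein-coding and 2 are pseudogenes, and AT1G10260, one of the pseudogenes, rests on a probe set whose name marks probes shared between transcripts. The gene table lists 475 protein-coding loci in the same stretch. No probe set was named for ESD7 itself. Its own level was not analysed here, and so the mutant label was not checked against it.

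ESD7 encodes the large catalytic chain of DNA polymerase epsilon, the enzyme that copies the leading strand at the replication fork, and the mutant is known for early flowering. Plant genes that sit side by side are mostly transcribed from their own promoters and often have unrelated functions. A stretch of chromosome around a mutation is, however, usually inherited together with it. A read of the loci in order therefore describes transcript levels around the mutated gene rather than a pathway.

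Whole seedlings carrying esd7-1 were compared with Landsberg erecta (Ler) wild-type seedlings. Both genotypes were grown under short days at 22 °C and harvested at 14 days of age, 8 h after dawn. There were 3 Affymetrix arrays per genotype, with RNA from a separate pool of plants on each, so a value is an average over plants and tissues. The labels used here do not say how the mutation was made or how often the line was backcrossed. The values are log2 expression, on which a difference of 1 is a 2-fold change, and array medians lay between 4.81 and 4.89. The photosynthesis genes RCA and PSAN, 2 of 4 shoot markers with a probe set, read 12.75 to 13.76 on all arrays. Bacterial poly-A controls set 2 arrays apart, with a mean level of 6.53 on esd7-1 replicate 3 and 7.29 on Ler replicate 2 against 5.74 to 5.89 elsewhere. The 2 root markers, PYK10 and EXPA7, averaged 8.49 and 8.09 on these arrays and 7.09 to 7.39 on the other 4. Both arrays are therefore treated separately where a member's result rests on them.

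None of the 200 loci passed the test between esd7-1 and Ler. The test was limma with Benjamini-Hochberg adjustment over all 22746 plant probe sets at a threshold of 0.05, and the smallest adjusted p among the members was 0.379. The background was the same, with 0 probe sets called, or 0%. Unadjusted p-values fell under 0.05 at 8 members, or 4.00%, against 5.78% of all plant probe sets and 5.25% of all loci. In esd7-1 5 of the 8 were higher and 3 lower, against backgrounds of 2.29% higher and 3.49% lower among plant probe sets. The genotypes did not overlap, meaning that every esd7-1 array was above or every one below the Ler arrays, at 23 members. That was 11.5% of them, against 11.3% of plant probe sets and 11.0% of all loci. In esd7-1 12 of the 23 were higher and 11 lower, against 5.64% and 5.69% of plant probe sets. Both shares of the flanking loci thus lay near the background.

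The differences were small. The median over the 200 loci was 0.00, with 99 loci higher, 99 lower and 2 equal in esd7-1, against a median of 0.02 over all loci and 0.02 over the other 3211 loci of chromosome 1. From the 5th to the 95th percentile the differences ran from -0.31 to 0.27 around ESD7 and from -0.37 to 0.30 on the rest of chromosome 1. An absolute difference above 0.5 was seen at 5 members, or 2.50%, and at 2.76% of all loci and 3.35% of plant probe sets. None exceeded 1. The median standard error of a member's difference was 0.15 in limma, abbreviated SE from here on.

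AT1G06830 had the largest difference and the smallest p of the stretch. Its values in esd7-1 were 6.27, 6.30 and 6.35 for replicates 1, 2 and 3. In Ler they were 5.43, 5.47 and 5.60. Every mutant array thus read above every Ler array, with a gap between the groups far wider than the spread within either. The log2 difference was 0.81, a 1.75-fold higher level (limma SE 0.10, adjusted p 0.379). It was 0.77 among the 4 arrays that did not stand apart and 0.88 between the 2 that did. With array weights in limma its adjusted p was 0.0354, and it was the 1 member that passed under any setting tried. Those weights were 3.71 for esd7-1 replicate 1 against 0.63 and 0.25 for replicates 2 and 3, so the mutant side of that call rests mostly on 1 array. With the weights 18.8% of all plant probe sets had an unadjusted limma p under 0.05, against 5.78% without them. The share of plant probe sets that passed the adjusted threshold with the weights is not given here. Whether the call sets this locus apart therefore cannot be read from it. The locus lies 71 measured loci before ESD7, and the gene table gives it no name.

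AT1G09910, 66 measured loci after ESD7 and also without a name in the table, was next among the higher ones. It read 4.78, 4.74 and 4.71 in esd7-1. Its Ler values were 4.34, 4.10 and 3.98. The mutant arrays were nearly equal and all lay above Ler, at a level at percentile 42.4 of all plant probe sets. The log2 difference was 0.60, or 1.52-fold (limma SE 0.12, adjusted p 0.733). Its size was 0.60 in the other 4 arrays alone and 0.61 in the pair set apart.

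XTH33 (AT1G10550), a xyloglucan endotransglucosylase/hydrolase that cuts and rejoins wall polysaccharides, had the smallest p among the lower loci. Its esd7-1 values were 4.77, 4.79 and 4.79. The Ler arrays read 5.32, 5.64 and 5.23. All mutant arrays were below all Ler arrays, and Ler replicate 2 was the highest of its group. The log2 difference was -0.61 (limma SE 0.13, adjusted p 0.733). In the other 4 arrays alone it was -0.50, and in the pair set apart -0.85.

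AT1G09500 had the lowest difference of the stretch, -0.62, but a wide spread. It read 7.48, 7.71 and 6.65 in esd7-1. In Ler it read 8.15, 7.21 and 8.33. The groups overlapped, because Ler replicate 2 lay below 2 mutant arrays, and within each genotype the lowest value was on the array that stood apart. Its SE was 0.38 (limma adjusted p 0.846). The genotypes differed by -0.65 in the other 4 arrays alone and by -0.56 in the pair set apart. That pair differed from the others by -0.99. Leaving out 1 array moved the genotype difference between -0.302, without esd7-1 replicate 3, and -0.96, without Ler replicate 2, and it was -0.40 without Ler replicate 3. After a second quantile normalization it was -0.50, and XTH33, at -0.61, was then the lowest.

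PDIL5-1 (AT1G07960), a protein disulfide isomerase-like protein of the secretory pathway, lies 12 measured loci before ESD7. It read 5.29, 5.65 and 5.12 in esd7-1. Its Ler values were 5.82, 5.83 and 5.83. All 3 mutant arrays lay below a tight Ler group, and the mutant arrays spread over a wider range. The log2 difference was -0.47 (limma SE 0.15, adjusted p 0.806).

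Haspin (AT1G09450), a kinase that phosphorylates histones in mitosis, read 4.14, 4.11 and 4.07 in esd7-1 and 3.83, 3.63 and 3.91 in Ler. The genotypes did not overlap, at a low level at percentile 29.4 of all plant probe sets. The log2 difference was 0.32 (limma SE 0.11, adjusted p 0.836).

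Of the other members with large differences, several owed their size to 1 array. AT1G06470 differed by -0.52, with 4.99 on esd7-1 replicate 3 against 6.20 to 6.70 on the other 5 arrays. Among the 4 arrays that did not stand apart its difference was 0.00. AT1G06510 differed by -0.50 and did not overlap, with 5.55 on esd7-1 replicate 3, 6.39 and 6.43 on the other mutant arrays and 6.57 to 6.73 in Ler. Its size was -0.24 in the other 4 arrays alone and -1.02 in the pair set apart. AT1G08315 differed by -0.34, with Ler replicate 2 at 6.43 above 5.45 to 5.74 on the other 5 arrays. Without the pair set apart AT1G08315 differed by -0.02. AT1G07830, at -0.36, did not rest on 1 array in this way. It differed by -0.295 in the other 4 arrays alone and by -0.50 in the pair set apart.

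Among the higher loci, AT1G06640 differed by 0.43, AT1G07380 by 0.37, AT1G06250 by 0.34, AT1G07330 by 0.33 and AT1G07560 by 0.32, with adjusted p of 0.846 each in limma. All 5 differed more between the 2 arrays that stood apart, by 0.60 to 0.95, than among the other 4, by 0.03 to 0.35. AT1G06250 did not overlap, at a level at percentile 7.1 of all plant probe sets. AT1G08170, at 0.24, and AT1G10410, at -0.24, were among the 5 loci with the smallest p in their direction, and neither overlapped between genotypes.

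The loci nearest to ESD7 were read in order. The gene table places AT1G08250, not analysed here, between ESD7 and the first member before it, AT1G08230, while AT1G08270 follows ESD7 directly. AT1G08230 read 4.79, 5.12 and 4.77 in esd7-1 and 5.26, 4.90 and 5.69 in Ler. The genotypes overlapped, since Ler replicate 2 lay below one mutant array. The difference was -0.39 (limma SE 0.22, adjusted p 0.846). It was -0.187 without Ler replicate 3, -0.582 without Ler replicate 2 and -0.605 with array weights. AT1G08270 read 3.83, 3.86 and 3.54 in esd7-1 and 3.83, 3.56 and 3.55 in Ler, at a low level. Its difference was 0.10 with an SE of 0.14.

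Of the 10 members on each side of ESD7, 6 were higher and 14 lower in esd7-1, with differences from -0.39 to 0.24 and none past the test. Before ESD7, 4 were higher and 6 lower. After it, 2 were higher and 8 lower. Of the 20, 70.0% were thus lower, against 45.3% of all loci. Over all loci that share was 68.6% at a mean level of 5 or more and 27.9% under 5, and the 20 had a median level of 5.32. Moving away from ESD7 on the side of smaller tags, AT1G08220 differed by 0.15, AT1G08210 by -0.03, AT1G08180 by -0.23, AT1G08170 by 0.24 and CHX6B by 0.24. The sign thus turned several times within a few loci. Further out, AT1G08110 differed by -0.21, AT1G08050 by 0.21, AT1G08040 by -0.17 and AT1G07990 by -0.02. AT1G08110 and AT1G08050 did not overlap between genotypes, in opposite directions. On the other side AT1G08280 differed by -0.07, AT1G08310 by -0.04, AT1G08315, described above, by -0.34 and AT1G08340 by 0.16. Next came AT1G08350 at -0.07, AT1G08360 at -0.05 and AT1G08390 at -0.11. Each of these loci overlapped between genotypes. The outermost of the 10, CPNIFS and FATB, differed by -0.19 and -0.14. The 20 loci had a median difference of -0.06, and 3 of them, or 15.0%, did not overlap, against 11.3% of plant probe sets.

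In runs of 20 measured loci, the median difference ranged from -0.07, in AT1G10300 to AT1G10640, to 0.14, in AT1G07310 to AT1G07750. In that last run 14 of 20 loci were higher in esd7-1, and its median level of 4.40 was the lowest of the 10 runs. The run just after ESD7, AT1G08270 to AT1G08750, had a median of -0.07 and 6 of 20 loci higher, with no locus whose genotypes did not overlap. The run just before it, AT1G07790 to AT1G08230, had a median of 0.02 and held 4 such loci. The first run of the stretch, AT1G06240 to AT1G06650, also held 4, and such loci made up 11.0% of all loci. Over all loci before ESD7 the median was 0.04, and over all loci after it -0.03. The 2 sides differed by 0.07, with a spread between replicates of 0.06 (SD) for that quantity. Without esd7-1 replicate 2 the sides differed by 0.13, and without esd7-1 replicate 3 by 0.03. It was also 0.03 without the 2 arrays that stood apart and after a second quantile normalization, and 0.025 without dim probe sets.

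Differences of neighbouring members were not positively correlated. Across the 199 pairs of neighbouring measured loci the differences correlated at -0.10 (Pearson) and -0.10 (Spearman), against 0.04 and 0.06 for the 3210 pairs on the rest of chromosome 1. The differences had the same sign in 45.7% of the pairs around ESD7 and in 51.7% of the pairs elsewhere on the chromosome. These are correlations across loci that share the same 6 arrays, and loci are not independent replicates. Neighbours were taken by locus tag, which places AT1G07860 before AT1G07870 while the gene starts run the other way. In the order of gene starts the correlation was -0.101. Of the neighbours that were measured on both sides, AT1G06830 lay between AT1G06810, at 0.07, and AT1G06840, at 0.11.

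In the values as deposited, differences followed the level of the transcript. Of the 93 members with a mean level under 5, 69 were higher in esd7-1, with a median difference of 0.07. Of the 107 at 5 or more, 75 were lower, with a median of -0.11. Over the loci outside the stretch the medians were 0.07 and -0.10 at the same levels. The 12 members that did not overlap and were higher included 11 with a level under 5, and all 11 that were lower lay at 5 or more. Outside the stretch, of 7503 loci under 5, 593 were higher and 155 lower without overlap. Of 5583 at 5 or more, 149 were higher and 535 lower. Counting both directions, 11.8% of the members under 5 did not overlap, against 9.99% of all loci at that level. At 5 or more it was 11.2% against 12.2%. Across loci the difference correlated with the level at -0.30 (Pearson) over the 200 members and at -0.33 over the 13086 others, with levels and differences from the same arrays.

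This relation depended on scaling. After a second quantile normalization of the deposited values the medians of the members were 0.01 under 5 and 0.00 at 5 or more. Without overlap there were then 9 higher and 8 lower members, and with median centring 6 higher and 17 lower. Of the 13086 loci outside the stretch, 600 were higher and 695 lower without overlap after the second quantile normalization. With median centring these numbers were 540 and 855, so the lower side was the larger there too. For the members median centring gave medians of 0.06 under 5 and -0.12 at 5 or more. The median over all plant probe sets was 0.007 as deposited, -0.003 after centring and -0.002 after the second quantile normalization.

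The gene table gives a name to 35 of the 200 members. They were grouped by role from those names, with the values already known. Of the 35, 16 were higher and 19 lower in esd7-1, with a median of -0.04, and none passed the limma test. Over all loci 27.9% of those with a mean level under 5 were lower, and 68.6% of those at 5 or more. The counts of higher and lower members per group therefore cannot be told apart from the levels of their transcripts. In whole seedlings a lower reading from fewer cells of a type cannot be told apart from less RNA per cell.

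The nucleus and the chromosomes were represented by 9 members, 6 higher and 3 lower, with adjusted p from 0.836 to 0.964 in limma. Among the higher ones STN1, Haspin, DFO and bZIP52 had a mean level under 5, while PKDM7D, NIH and all 3 lower ones lay above 5. STN1, part of the complex that caps telomeres, had the narrowest range of all 200 loci. It read 4.36, 4.32 and 4.33 in esd7-1 and 4.30, 4.29 and 4.26 in Ler. The genotypes did not overlap, yet the difference was 0.05 with an SE of 0.09. ATRX, a chromatin remodeller that helps deposit histones, differed by -0.08, with 4.50 on esd7-1 replicate 3 and 5.06 to 5.27 elsewhere. PKDM7D, a histone demethylase, differed by 0.07 and read highest, at 6.37, on esd7-1 replicate 2. HTB1, a histone of the nucleosome core, had a mean of 7.68 ± 0.13 (SD, n = 3) in the mutant and of 7.86 ± 0.29 in the wild type, a difference of -0.18. DFO, which is needed for DNA breaks in meiosis, differed by 0.09, the nuclear helicase NIH by 0.06 and the transcription factor bZIP52 by 0.03. The minor-spliceosome protein U11/U12-65K (AT1G09230) differed by -0.15. Among loci listed by tag for replication and chromatin, 5 of 14 were measured, 1 higher and 4 lower, and none passed. Its members without a name in the table, AT1G06760 and AT1G07270, differed by -0.08 and -0.12. The other listed loci that were measured did not pass either, with 1 higher and 2 lower for chloroplast and light, 2 higher and 1 lower for redox, 1 lower for translation and 1 higher for secretion.

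Chloroplast and central metabolism had 5 named members, 1 higher and 4 lower, with a median of -0.15, and all had a mean level above 5. ACLA-3, a subunit of ATP-citrate lyase, which makes acetyl-CoA in the cytosol, read 7.64, 7.84 and 7.99 in esd7-1. In Ler it read 8.00, 8.26 and 8.10. The mutant values all lay just below those of Ler. The difference was -0.30 (limma SE 0.13, adjusted p 0.846). F2KP, which sets the level of a regulator of sucrose synthesis, differed by -0.15 and CPNIFS, which supplies sulfur for iron-sulfur clusters in the chloroplast, by -0.19. FATB, a thioesterase that releases saturated fatty acids, differed by -0.14. HEMA2, an enzyme at the start of tetrapyrrole synthesis, differed by 0.03, with all 6 arrays between 5.12 and 5.27.

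Detoxification and metal binding had 5 named members, 2 higher and 3 lower. Among them is a run of adjacent UDP-glycosyltransferase genes, UGT71C5, UGT71C4 and UGT71C3, which attach sugars to small molecules. They differed by -0.06, -0.24 and 0.42 in that order along the chromosome. UGT71C3 read 4.46, 3.91 and 4.32 in esd7-1. In Ler it read 3.91, 3.84 and 3.68. The lowest mutant array equalled the highest Ler array, so the genotypes met. Its difference had an SE of 0.16 (limma adjusted p 0.846). UGT71C4, at a higher level, read lowest on esd7-1 replicate 1, at 6.93, against 7.33 to 7.79 on the other arrays. GSTU18, a glutathione transferase, differed by -0.04 and was nearly equal on the mutant arrays, at 8.28 to 8.30.

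Secretion, folding, traffic and turnover had 7 named members, 2 higher and 5 lower, with a median of -0.21. PRA1.E, a Rab-binding protein of the endomembranes, differed by -0.31, with Ler replicate 2 at 7.67 and the other arrays at 6.89 to 7.15. ECHIDNA (AT1G09330), which acts in secretion from the trans-Golgi network, differed by -0.21, with its lowest value, 7.65, on esd7-1 replicate 3. Both thus took much of their size from an array that stood apart, and among the other 4 arrays they differed by -0.13 and -0.07. The calcium-binding chaperone CRT1b differed by 0.03, the presenilin PS1 by -0.06 and the myosin motor XIC by 0.10. SK18, a SKP1-like adaptor of ubiquitin ligases, differed by -0.21.

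The cell wall and cytoskeleton had 4 named members, 2 higher and 2 lower, and XTH33, described above, had the lowest difference of them. WLIM1, which bundles actin filaments, differed by 0.17, the xylanase gene ATXYN2 (AT1G10050) by 0.03 and the arabinogalactan glycosyltransferase GALT29A (AT1G08280) by -0.07. Of 5 members for signalling and ion transport, 3 were higher, all with a mean level under 5, and the 2 lower ones lay above 5. The cation/proton exchanger CHX6B differed by 0.24, the PXY-like receptor kinase PXL1 (AT1G08590) by 0.23 and the MAP kinase ATMPK13 by 0.14. The protein kinase APK1A differed by -0.12 and SRC2, a membrane protein named for its response to cold in soybean, by -0.02. PXL1 read 5.50 on esd7-1 replicate 3 and 4.79 to 4.93 on the other 5 arrays. None of these 9 genes passed the limma test, and XTH33 was the 1 of them whose genotypes did not overlap.

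The members spanned much of the range of the array. Mean levels ran from 3.12 to 12.97 with a median of 5.27, against 4.56 over all loci, and 37.5% lay below the 40th percentile of plant probe sets. The brightest was AT1G09310, at 12.83 to 13.21 on all arrays and with a difference of -0.06. AT1G09750, next at a mean of 10.45, differed by 0.23, and AT1G08360, at 10.38, by -0.05. MT1C and CRT1b complete the 5 brightest. At 3 loci there was a second single-gene probe set. For AT1G09660 the 2 probe sets differed by -0.22 and -0.24, and for AT1G06750 by 0.07 and 0.05. For AT1G10090 the brighter one differed by -0.12 and the dimmer one by -0.49, with adjusted p of 0.885 and 0.836 in limma.

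The range over the 6 arrays had a median of 0.51 and exceeded 1 at 16 members. esd7-1 replicate 3 held the single lowest value at 69 of the 200 loci and the single highest at 53, or 34.5% and 26.5%, against 25.2% and 29.4% of the loci outside the stretch. With a term for the 2 arrays that stood apart, that term had an adjusted p under 0.05 in limma at 20 members, 10 higher and 10 lower on these arrays. Over the same term 7.94% of plant probe sets and 6.98% of all loci passed, and the difference of these shares was not tested. The share depended on level. Under a mean level of 5 it was 2.15% of members against 2.26% of all loci, and at 5 or more 16.8% against 13.3%. None of the 20 was among the 23 whose genotypes did not overlap. Each genotype holds 1 of these 2 arrays, so a large effect of them widens both groups and favours overlap by construction.

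MT1C, a metallothionein that binds metals, had the widest range of the stretch. It read 9.50, 9.88 and 11.32 in esd7-1. In Ler it read 9.81, 10.46 and 9.97. The 2 highest values were those of the arrays that stood apart, by 1.1 on average. Between genotypes it differed by 0.15 with an SE of 0.46, and by -0.20 among the other 4 arrays. AT1G10140 was higher by 1.16 on the 2 arrays and AT1G07750 by 0.82. On these 2 loci both arrays lay above all of the other 4.

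SK18 read 6.24, 6.08 and 4.82 in esd7-1. In Ler it read 6.01, 5.52 and 6.25. Its 2 lowest values were those of the arrays that stood apart, by -0.98. AT1G10640, the last locus of the stretch, was lower by 0.95 there, with a genotype difference of -0.28. AT1G09900 ranged over 1.55, from 5.21 on esd7-1 replicate 3 to 6.76 on replicate 2. The root markers moved with the same 2 arrays, at the values given above, and their part in these readings was not tested.

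The genotype difference was then taken separately in arrays that share no sample. Among the other 4 arrays 4 members, or 2%, differed by more than 0.5, against 1.81% of the loci outside the stretch. Between the 2 arrays that stood apart 40 did, or 20%, against 20.5% outside. Both shares lay near those of other loci. AT1G06830, AT1G09910 and AT1G09500 exceeded 0.5 with the same sign in both, as did 0.841% of the loci outside, and the fourth was AT1G08230, at -0.52 and -0.13. Of the 200 loci, 120 had the same sign in both, or 60.0%, against 58.5% of the loci outside the stretch. The differences correlated across loci at 0.24 (Pearson) and 0.22 (Spearman) over the members and at 0.31 and 0.28 over the 13086 other loci. The points share the level of their transcript, which was related to the difference.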

How the data were processed

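The authors deposited log2 values for each probe set of 6 Affymetrix arrays, rounded to 2 decimals. RMA and limma, without versions, are the tools listed per the submitters' processing notes. As background, RMA subtracts background, applies quantile normalization and combines the probes of a set. Further settings: not given in the sources used here. All value columns belonged to a sample. Groups and replicate numbers came from the sample titles.

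Of 22810 probe sets, 64 controls were left out, which leaves 22746. The platform annotation names 13513 probe sets with 1 gene, and 13436 of these matched the RefSeq gene table of TAIR10.1 by gene identifier. It served for symbols, for the chromosome of a gene and for which genes neighbour each other. Its gene starts were used to compare the order by locus tag with that along the chromosome, and no sequences were used.

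Genotype differences in log2 value were fitted in limma (version 3.58.1, under R 4.3.3) by lmFit and eBayes with genotype as the single factor. P-values were two-sided and Benjamini-Hochberg adjusted over all 22746 probe sets. The fit was run on simulated data with independent noise. Those data hold no effect shared across an array, so that run cannot show how the fit handles the arrays that stood apart. The number of arrays limits the precision. Lists of loci are described by counts and medians, with no list test.

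The members, lists and alternatives were chosen with earlier results of these data known. Members named are the 10 nearest ESD7 on each side, the 8 highest and 8 lowest, the 5 smallest p per direction, the 5 brightest, the 5 with the widest range, the 3 largest rises and falls on the arrays that stood apart (mean poly-A control more than 0.5 above the median), and measured members of functional lists fixed by tag. In the lists, 3 of 13 chloroplast and light, 1 of 7 translation, 3 of 7 redox and 1 of 9 secretion loci were measured. None of the loci on the transport, transcription factor and signalling lists was measured. The 35 loci with a name in the table, and any other locus named, were added after values were seen.

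Same-numbered arrays were not treated as pairs, since their residuals from genotype means had correlations of 0.54 (number 1), -0.41 (number 2) and -0.60 (number 3). Arrays of unlike numbers correlated at -0.522 to 0.634. The highest were esd7-1 replicate 2 with Ler replicate 3, at 0.634, and esd7-1 replicate 3 with Ler replicate 2, at 0.585. The main fit held no term for such likeness between arrays.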

Additional observations from a re-analysis of the deposited data

How the results depend on the processing

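None of the flanking loci passed the adjusted threshold under any alternative except array weights, where 1 did (AT1G06830). The share of all plant probe sets that passed it with array weights is not given here, so that call has no background beside it. The 8 loci at an unadjusted p under 0.05 became 33 with array weights (16.5%, against 18.8% of plant probe sets), 15 with a term for the 2 arrays that stood apart (7.50% against 11.1%) and 15 without these arrays (7.50% against 7.49%). They became 13 with a plain t statistic (6.50% against 5.38%), 5 after a second quantile normalization (2.50% against 5.14%) and 4 without dim probe sets (3.20% against 5.79%). Over the inner 100 loci there were 5 (5.0% against 5.78%). The replicate block gave 6 (3.00% against 5.02%) and changed no call. The 23 loci without overlap became 77 without the 2 arrays (38.5% against 33.3%), 13 without dim probe sets (10.4% against 12.1%) and 11 over the inner 100 loci (11.0% against 11.3%). These settings hold fewer arrays or fewer loci, which changes such counts by construction. Without dim probe sets the median difference was -0.0767. The median of other loci at that same cut is not given here, but over all loci with a mean level of 5 or more it was -0.0967. The neighbour correlation was -0.048 after the second quantile normalization. Leaving out each array in turn gave 0 calls throughout, 4 (without esd7-1 replicate 1, 2% against 4.19%) to 15 (without esd7-1 replicate 2, 7.50% against 10.2%) loci at an unadjusted p under 0.05, 32 to 60 without overlap (16.0% against 16.3% and 30.0% against 28.8%), a neighbour correlation of -0.12 to -0.057 and a difference between sides of 0.0317 to 0.1258. Of 71 named loci 39 kept the sign of their difference under all alternatives, 31 turned it, and AT1G06470 reached 0 without the 2 arrays. None of these 32 passed. The cause was not tested. With array weights the turned differences were AT1G07990 0.039, AT1G08310 0.016, CPNIFS 0.015, AT1G09310 0.003, MT1C -0.328, SK18 0.068, ATRX 0.114, HEMA2 -0.024 and NIH -0.022. Without the 2 arrays they were AT1G07990 0.125, AT1G08210 0.015, AT1G08220 -0.07, AT1G08280 0.14, CPNIFS 0.03, MT1C -0.2, AT1G09900 0.015, SK18 0.03, ATRX 0.175, HEMA2 -0.035, bZIP52 -0.08, UGT71C5 0.095 and AT1G10050 -0.04. After the second quantile normalization they were AT1G07990 0.051, AT1G08210 0.044, AT1G08360 0.012, AT1G06760 0.03, GSTU18 0.076, bZIP52 -0.043, STN1 -0.018, UGT71C5 0.033, PS1 0.058, SRC2 0.056 and AT1G10050 -0.015. Leaving out arrays one at a time moved some differences across 0, over ranges of AT1G07990 -0.135 to 0.155, AT1G08040 -0.328 to 0.05, AT1G08210 -0.14 to 0.125, AT1G08220 -0.015 to 0.235, AT1G08280 -0.198 to 0.072, AT1G08310 -0.132 to 0.073, AT1G08360 -0.197 to 0.112, CPNIFS -0.34 to 0.09 and FATB -0.307 to 0.075. Others ranged over AT1G09310 -0.145 to 0.045, MT1C -0.39 to 0.52, CRT1b -0.082 to 0.113, AT1G10140 -0.207 to 0.593, AT1G09900 -0.703 to 0.072, AT1G07750 -0.108 to 0.435, SK18 -0.477 to 0.233, AT1G10640 -0.533 to 0.1, ATRX -0.218 to 0.167 and PKDM7D -0.113 to 0.227. The remaining ranges were HEMA2 -0.015 to 0.06, GSTU18 -0.17 to 0.08, NIH -0.04 to 0.185, bZIP52 -0.032 to 0.118, UGT71C5 -0.142 to 0.063, PS1 -0.188 to 0.072, SRC2 -0.235 to 0.145, AT1G09330 -0.343 to 0.007, AT1G10050 -0.017 to 0.085 and WLIM1 -0.012 to 0.498. The alternatives for the neighbour correlation and for the sides were chosen after seeing the data. With 3 arrays per genotype and 37.5% of the members dim, small differences were not resolved.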
